A study of Mus musculus with 6 samples.

Results

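The 9 genes described here encode limb transcription factors of a pair of families: the T-box proteins Tbx2, Tbx3, Tbx4, Tbx5, Tbx15 and Tbx18, and the basic helix-loop-helix (bHLH) proteins Hand2, Twist1 and Twist2. They were taken by gene symbol, by a rule that uses no measured values, but were proposed with earlier results of these data known. They are 9 of 29510 gene symbols, with 21 of the 85882 transcripts that the deposited table lists. The cells were mouse primary chondrocytes, the cells that build cartilage, grown in culture without being made to differentiate. There were 3 libraries from cells that carried Prx1-CRE with floxed Nf2 alleles (Nf2f/f;Prx1-CRE, called cKO 1 to 3) and 3 from cells with the floxed alleles alone (Nf2f/f, called control 1 to 3). The floxed Nf2 alleles were shared by both groups. The Cre is driven by an enhancer of Prrx1, a gene of limb bud mesenchyme, and no library with Cre and unfloxed Nf2 was analysed here, so an effect of Cre alone and of Nf2 loss cannot be told apart. The labels give no strain, age, sex, culture time or skeletal site. They also do not state whether the replicates are different animals or cultures. The p-values below thus reflect spread among these 6 libraries, part of which may be technical. The title of the series asks about merlin, the Nf2 product, in limb and thumb formation and in Hedgehog signalling through primary cilia.

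T-box proteins bind DNA through a shared domain and switch genes on or off during organ outgrowth. In the limb, Tbx5 is the forelimb gene and Tbx4 the hindlimb gene, and each is known to act in bud outgrowth through Fgf10 signalling to the overlying ectoderm. Tbx2 and Tbx3 act mainly as repressors at the limb margins and between digits, and Tbx15 and Tbx18 act in the mesenchyme that forms skeletal elements. Hand2, Twist1 and Twist2 are bHLH proteins, which bind DNA as dimers with each other or with the broadly expressed E proteins. Id proteins lack the DNA-binding region and hold E proteins in inactive dimers. Hand2 is known to set the posterior limb bud and to oppose Gli3, and Twist1 and Twist2 keep mesenchyme from early differentiation.

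Levels are in FPKM, fragments per kilobase of transcript scaled to library size, which allows comparison between genes of different length. Testing by limma covered the 14080 genes whose 6 libraries averaged 0.5 FPKM or more, and was done on log2(FPKM + 0.5), with a gene passing at a Benjamini-Hochberg adjusted p under 0.05 over all of them. Of those genes, 1713 (12.2%) passed, 1070 higher in cKO (62.5% of the calls) and 643 lower. The share of calls that were higher was 48.4% with median-of-ratios scaling and 47.5% with quantile normalization. In 35.1% of the tested genes the groups did not overlap. The low values implied about 18200000, 18700000 and 19500000 fragments in cKO 1 to 3 and 17000000, 17500000 and 17800000 in control 1 to 3. These depths are estimates, since at most 16.6% of the low values of genes with a single transcript lay within 2% of a whole number of fragments. Nf2, which encodes merlin, was at 17.5, 15.6 and 18.1 FPKM in cKO 1 to 3 and at 16.7, 16.6 and 14.1 FPKM in control 1 to 3, and a sum over transcripts does not check the deletion. Xist, a transcript of female cells, was at 51.4, 41.6 and 0.0288 FPKM in cKO 1 to 3 and at 51.1, 0.525 and 53.9 FPKM in control 1 to 3.

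The cells carried the cartilage genes named by their label, at a lower level in cKO. All 12 chondrocyte markers, among them Col2a1, Acan and Sox9, were present and all 12 passed the test as lower, with a summed level of 2390 to 2970 FPKM in cKO against 5280 to 6500 FPKM in control. Of 6 tested fibroblast and tendon markers 3 fell (Dcn, Lum and Col14a1), and the list summed to 102 to 146 FPKM in cKO against 261 to 324 FPKM in control. Of 4 tested smooth muscle markers 2 rose (Des and Tagln), with sums of 294 to 391 FPKM in cKO and 197 to 260 FPKM in control, and of 3 tested adipocyte markers 2 rose (Pparg and Lpl), with sums of 52.2 to 87.2 FPKM and 45.4 to 51.0 FPKM. The smooth muscle gene Myh11 stayed at or under 0.089 FPKM in every library. Of the adipocyte list, Adipoq and Plin1 stayed at or under 0.108 FPKM and Fabp4 did not pass. Of 3 tested macrophage and osteoclast markers 2 fell (Ctsk and Acp5), with sums of 52.5 to 68.6 FPKM in cKO and 85.0 to 105 FPKM in control. Most of these sums was Ctsk (means of 50.8 FPKM in cKO and 85.6 FPKM in control). Ptprc, Adgre1 and Csf1r stayed at or under 0.429 FPKM in every library, so the sums do not show that such cells were present. Of 5 tested osteoblast markers none passed, with sums of 1860 to 2350 FPKM in cKO and 1900 to 2190 FPKM in control. Most of these sums was Spp1 (means of 1901 FPKM in cKO and 1979 FPKM in control), so they say little about the other osteoblast markers. Ibsp had means of 141 FPKM in cKO and 40.9 FPKM in control, with overlap (limma adjusted p = 0.0870). The means of Alpl, Sp7 and Runx2 were also higher in cKO, and that of Bglap, under the filter, was lower. The epidermal list summed to 3.52 to 4.56 FPKM in cKO and 3.68 to 4.24 FPKM in control. In it Trp63 was higher, Krt14 was not listed, and Krt10 was lower without overlap but did not pass (limma adjusted p = 0.057). Epcam, under the filter, was also lower without overlap, with means of 0.0629 FPKM in cKO and 0.629 FPKM in control. The skeletal muscle list summed to 2.13 to 3.43 FPKM in cKO and 0.895 to 1.81 FPKM in control. Acta1 was higher and made up most of these sums. Myod1, Myf5 and Ckm stayed at or under 0.114 FPKM in every library, and Myog and Pax7 were not listed. Endothelial, glial and neuronal lists stayed under 1 FPKM in every library, and erythroid markers summed to 0.0192 to 0.0658 FPKM in cKO against 0.454 to 2.55 FPKM in control. The part of these shifts in the results for the regulators was not tested, and in bulk RNA fewer cells of a type and less RNA per cell cannot be told apart.

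Of the 9 regulators, 8 had a mean of at least 0.5 FPKM and were tested. Hand2 rose, beside 7.6% of all tested genes that did, Tbx18 fell, beside 4.57%, and Tbx3, Tbx4, Tbx5, Tbx15, Twist1 and Twist2 did not pass the test. The 2 calls among 8 genes stand beside 12.2% of all tested genes called in either direction. The median log2 change of the 8 was 0.09, against 0.05 for all tested genes. The groups did not overlap for 3 of the 8 (Hand2, Tbx18 and Tbx15), beside 35.1% of all tested genes. Both calls lay close to the threshold and depended on the libraries used. A p over the threshold does not show equal levels. The 95% intervals below give the sizes that these libraries leave possible on the log2(FPKM + 0.5) scale, where changes of low genes come out too small.

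**Figure D1:**
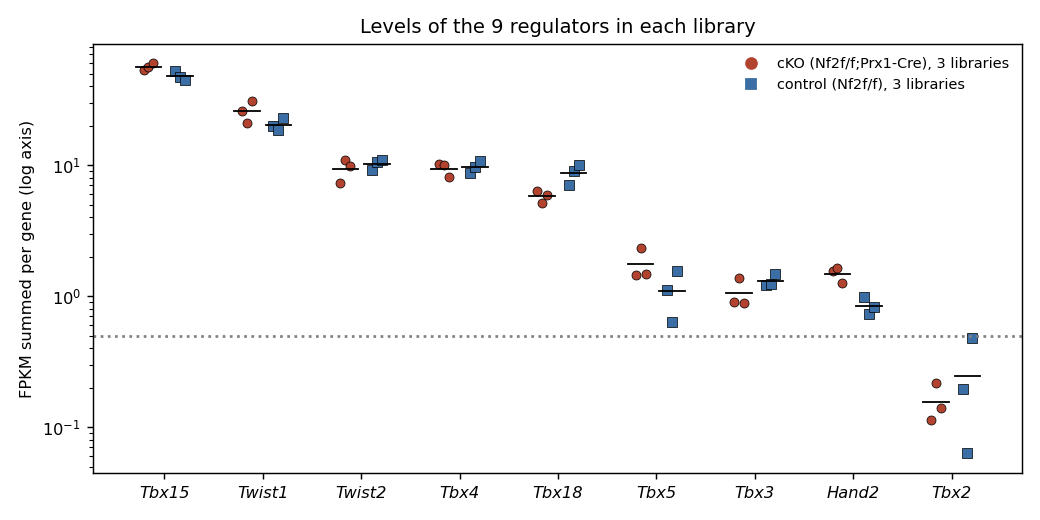
FPKM summed per gene on a log axis for the 9 regulators, with circles for the 3 cKO libraries, squares for the 3 control libraries, bars for group means and a dotted line at the 0.5 FPKM needed for testing. Tbx15 and Twist1 stand highest, and the cKO points lie above all control points for Hand2 and Tbx15 and below them for Tbx18.

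The regulators spanned a wide range of levels. In cKO the order of mean levels was Tbx15 (56.1 FPKM), Twist1 (25.9), Tbx4 and Twist2 (both 9.38), Tbx18 (5.81), Tbx5 (1.75), Hand2 (1.49), Tbx3 (1.05) and Tbx2 (0.156 FPKM). In control it was Tbx15 (47.9 FPKM), Twist1 (20.4), Twist2 (10.3), Tbx4 (9.74), Tbx18 (8.68), Tbx3 (1.31), Tbx5 (1.10), Hand2 (0.847) and Tbx2 (0.245 FPKM). Tbx15 and Twist1 were separate from their neighbours in both groups. Tbx4 and Twist2 overlapped each other in both groups, and Tbx18 lay below them without overlap in cKO but overlapped Tbx4 in control. Tbx5, Hand2 and Tbx3 each overlapped the next in that order in cKO, and in control Tbx3, Tbx5 and Hand2 did so.

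Hand2 (ENSMUSG00000038193, chromosome 8, 57320983 to 57324633, plus strand, mm10), the posterior limb bud factor, has 1 transcript in the table, with 2 exons and 2351 bases. It was at 1.563, 1.636 and 1.258 FPKM in cKO 1 to 3 and at 0.988, 0.730 and 0.822 FPKM in control 1 to 3. Every cKO library lay above every control library. The means were 1.49 ± 0.201 and 0.847 ± 0.130 FPKM (SD, n = 3 each), a ratio of 1.75. The log2 change was 0.56 (SE 0.15, 95% interval 0.21 to 0.90, limma adjusted p = 0.0478). The rise did not pass without any 1 of the 6 libraries (cKO 1, 2 or 3 or control 1, 2 or 3, limma adjusted p 0.0584 to 0.150) or with median-of-ratios scaling (0.0647), no filter (0.140) or the highest transcript of each gene (0.0924). It passed in 5 of 15 alternatives, and its log2 change stayed between 0.43 and 0.745 over 15 alternatives. The authors' deposited table gives its transcript a fold of 1.75 with q = 0.0197 and does not mark it as significant. These levels stand for an implied 67, 72 and 58 fragments in cKO 1 to 3 and 40, 30 and 34 in control 1 to 3.

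The 250 bases before the RefSeq start of Hand2 are shown because Hand2 is the regulator that rose, at chr8:57320733-57320982 on the plus strand of GRCm38.p6, the build also called mm10. Capitals mark matches to any of 5 motifs searched on both strands: the E-box CANNTG of bHLH dimers, the T-box site AGGTGTGA, the TEAD site GGAATG, the GLI site TGGGTGGTC and the promoter element CCAAT, the last added after the sequences were read.
Hand2: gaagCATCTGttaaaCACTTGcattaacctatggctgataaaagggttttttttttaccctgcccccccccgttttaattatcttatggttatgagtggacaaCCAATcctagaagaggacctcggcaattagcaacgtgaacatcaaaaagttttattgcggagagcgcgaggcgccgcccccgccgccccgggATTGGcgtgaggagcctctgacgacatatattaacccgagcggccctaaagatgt
The window held 2 E-boxes and 2 CCAAT elements that do not overlap. Of 32851 RefSeq windows of the same length, 66.2% held an E-box and 33.8% a CCAAT element. Neither a T-box site (1.12% of windows), a TEAD site (12.6%) nor a GLI site (0.225%) was among these letters.

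A long noncoding RNA gene, Hand2os1, overlaps all of Hand2 but its end, on the opposite strand. It summed to 0.185, 0.531 and 0.175 FPKM in cKO 1 to 3 and to 0.107, 0.107 and 0.163 FPKM in control 1 to 3, too low to be tested. Its highest value was in cKO 2 and the groups did not overlap. The library protocol names dUTP, which keeps strand, but whether strand was used in counting is not given in the sources used here, so reads of Hand2 and Hand2os1 where they overlap may not be separable. The tested genes whose profile over the 6 libraries was nearest to that of Hand2 were Olfml2b and Gm13464, at root-mean-square distances of 0.0522 and 0.0539 on the log2 scale. Olfml2b, an olfactomedin-family extracellular protein, was at 82.8, 92.5 and 72.6 FPKM in cKO 1 to 3 and at 63.4, 51.3 and 59.4 FPKM in control 1 to 3.

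Tbx18 (ENSMUSG00000032419, chromosome 9, 87702800 to 87731260, minus strand) was the regulator that fell. It was at 6.381, 5.126 and 5.931 FPKM in cKO 1 to 3 and at 7.003, 9.066 and 9.961 FPKM in control 1 to 3. The groups did not overlap, and control 1 lay nearest to cKO. The means were 5.81 ± 0.636 and 8.68 ± 1.52 FPKM (SD, n = 3 each), a ratio of 0.670, and the log2 change was -0.53 (SE 0.14, 95% interval -0.84 to -0.22, limma adjusted p = 0.0409). The fall did not pass without cKO 1, 2 or 3 or control 2 or 3 (limma adjusted p 0.0577 to 0.141), while without control 1 it did (0.0240). It was also lost with Xist as a covariate (0.0581), with protein-coding transcripts (0.0517), with the highest transcript of each gene (0.111) and with no filter (0.133), and passed limma in 6 of 16 alternatives. Its log2 change stayed between -0.67 and -0.43 over 16 alternatives.

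Almost all Tbx18 signal came from the 8-exon transcript ENSMUST00000034991, to which the authors' deposited table gives a fold of 0.670 and q = 0.0397, without marking it as significant. The 423-base noncoding ENSMUST00000186698 was listed at 0, or within rounding of 0, in all 6 libraries. Implied fragments for Tbx18 were 543, 449 and 541 in cKO 1 to 3 and 558, 742 and 830 in control 1 to 3. Counting error is therefore smaller than for Hand2. The chondrocyte, fibroblast and tendon marker sums were also lower in cKO and the smooth muscle sum higher, as given above. The uncharacterised transcript D030062O11Rik, which overlaps the start of Tbx18 on the opposite strand, was at 0.288, 0.254 and 0.185 FPKM in cKO 1 to 3 and at 0.211, 0.422 and 0.593 FPKM in control 1 to 3, so its groups overlapped. The nearest profiles were those of Notum (distance 0.0537), a secreted enzyme that inactivates Wnt ligands, and Gm4673 (0.0681). Notum was at 1.40, 1.03 and 1.35 FPKM in cKO 1 to 3 and at 1.445, 1.991 and 2.238 FPKM in control 1 to 3.

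The window before Tbx18 is shown as the counterpart of the Hand2 window, at chr9:87731261-87731510, written along the minus strand on GRCm38.p6 with capitals as above.
Tbx18: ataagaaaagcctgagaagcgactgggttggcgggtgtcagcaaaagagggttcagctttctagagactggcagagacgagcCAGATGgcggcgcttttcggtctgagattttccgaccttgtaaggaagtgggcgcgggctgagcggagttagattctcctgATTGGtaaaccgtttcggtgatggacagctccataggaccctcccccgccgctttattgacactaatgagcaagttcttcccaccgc
It held 1 E-box and 1 CCAAT element on the opposite strand, and no match to the other 3 motifs. Promoters of 5 of the 9 regulators could be matched in the RefSeq table (Hand2, Tbx4, Tbx18, Twist1 and Twist2). Those of Twist1 and Twist2 held 1 CCAAT element each and no match to the other 4 motifs.

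Tbx15 (ENSMUSG00000027868, chromosome 3, 99240381 to 99354259), the closest relative of Tbx18, was the most abundant regulator. It was at 52.8, 55.7 and 59.6 FPKM in cKO 1 to 3 and at 52.1, 47.3 and 44.3 FPKM in control 1 to 3. The groups did not overlap, but cKO 1 and control 1 were close. The log2 change was 0.23 (SE 0.078, 95% interval 0.05 to 0.41, limma adjusted p = 0.0984), which did not pass in any of 16 alternatives (0.0917 to 0.293). The 8-exon transcript ENSMUST00000029462 held 99.9% of the signal in cKO and 99.4% in control. The short ENSMUST00000151606 and ENSMUST00000150756 stayed at or under 0.405 and 0.041 FPKM in every library. Gm43120, an antisense gene inside the first intron of ENSMUST00000029462, was at 0.357, 0.175 and 0.252 FPKM in cKO 1 to 3 and at 0.501, 0.562 and 0.319 FPKM in control 1 to 3, so its groups overlapped. The ratio of Tbx18 to Tbx15, taken within each library so that scaling between libraries cancels, was -3.05, -3.44 and -3.33 on the log2 scale in cKO 1 to 3 and -2.90, -2.38 and -2.15 in control 1 to 3. Every cKO library had the lower ratio, with a difference of -0.80 (exact 2-sided permutation p = 0.10, the smallest that 3 against 3 libraries allow, and 0.20 adjusted over 4 ratios). Tbx18 was lower and Tbx15 higher in every cKO library, so this order of the ratios was already fixed and is no separate result.

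**Figure D2:**
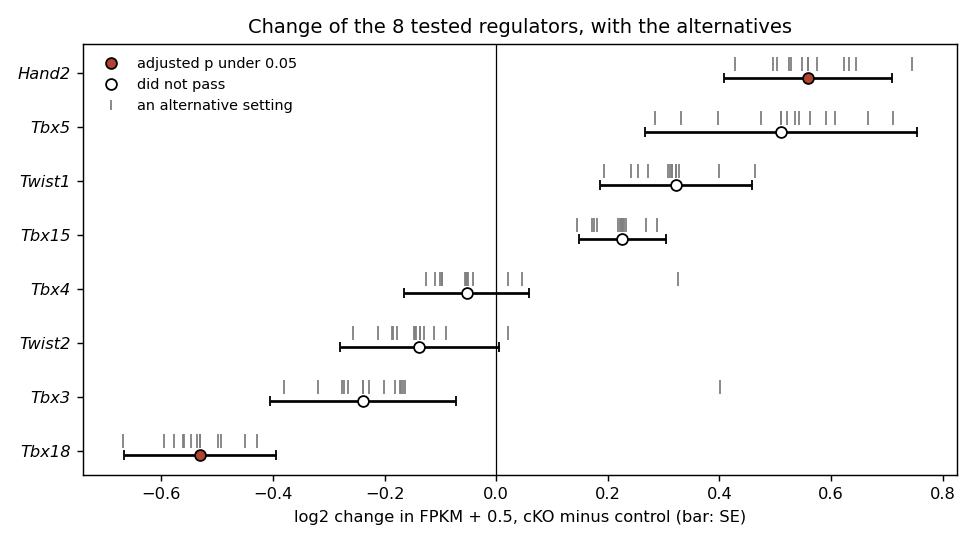
Log2 change (cKO minus control) of the 8 tested regulators on the log2(FPKM + 0.5) scale, with circles for the estimate (filled where the adjusted p is under 0.05), bars for the SE and ticks for the alternative settings. Hand2 (0.56) and Tbx18 (-0.53) are filled, and the ticks of Tbx4, Twist2 and Tbx3 lie on both sides of 0.

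The limb type genes were both present. Tbx4 (ENSMUSG00000000094, chromosome 11, 85886422 to 85916097), the hindlimb gene, was at 10.130, 9.944 and 8.071 FPKM in cKO 1 to 3 and at 8.730, 9.677 and 10.810 FPKM in control 1 to 3. Its groups overlapped, with a log2 change of -0.05 (SE 0.11, 95% interval -0.31 to 0.21, limma adjusted p = 0.799). The sign was positive without cKO 3 and without control 3. Tbx5 (ENSMUSG00000018263, chromosome 5, 119832668 to 119885219), the forelimb gene, was at 1.441, 2.339 and 1.482 FPKM in cKO 1 to 3 and at 1.114, 0.638 and 1.558 FPKM in control 1 to 3. Control 3 lay within the cKO range, and cKO 2 was the highest. Its log2 change of 0.51 (SE 0.24, 95% interval -0.05 to 1.07, limma adjusted p = 0.207) did not pass in any of 15 alternatives. Its 9-exon transcript ENSMUST00000018407 was at 1.362, 2.090 and 1.330 FPKM in cKO 1 to 3 and at 1.017, 0.628 and 1.240 FPKM in control 1 to 3. Those groups did not overlap, and the change did not pass either (limma adjusted p = 0.406). The shorter ENSMUST00000202504 and ENSMUST00000202723 stayed at or under 0.249 and 0.171 FPKM.

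Tbx4 exceeded Tbx5 in every library. The log2 ratio of Tbx5 to Tbx4 was -2.81, -2.09 and -2.45 in cKO 1 to 3 and -2.97, -3.92 and -2.80 in control 1 to 3. The difference was 0.78 (exact 2-sided permutation p = 0.20, and 0.267 adjusted over 4 ratios), and cKO 1 and control 3 had almost the same ratio. With 3 against 3 libraries this test cannot give a p under 0.10, so it cannot decide whether the ratio changed. Other genes of limb position were present too. Pitx1, a homeobox gene of the hindlimb, was at 33.1, 31.6 and 27.8 FPKM in cKO 1 to 3 and at 29.0, 24.6 and 32.0 FPKM in control 1 to 3. Hoxc10, a hindlimb-level Hox gene, was at 17.9, 21.2 and 22.6 FPKM in cKO 1 to 3 and at 18.2, 18.7 and 19.6 FPKM in control 1 to 3. Of the 7 limb position genes, which also include Isl1, Hoxc4, Hoxc5, Hoxc9 and Hoxc11, all were tested and none passed limma, with a median log2 change of -0.08. Whether limbs or other cartilages were pooled is not given in the labels.

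**Figure D3:**
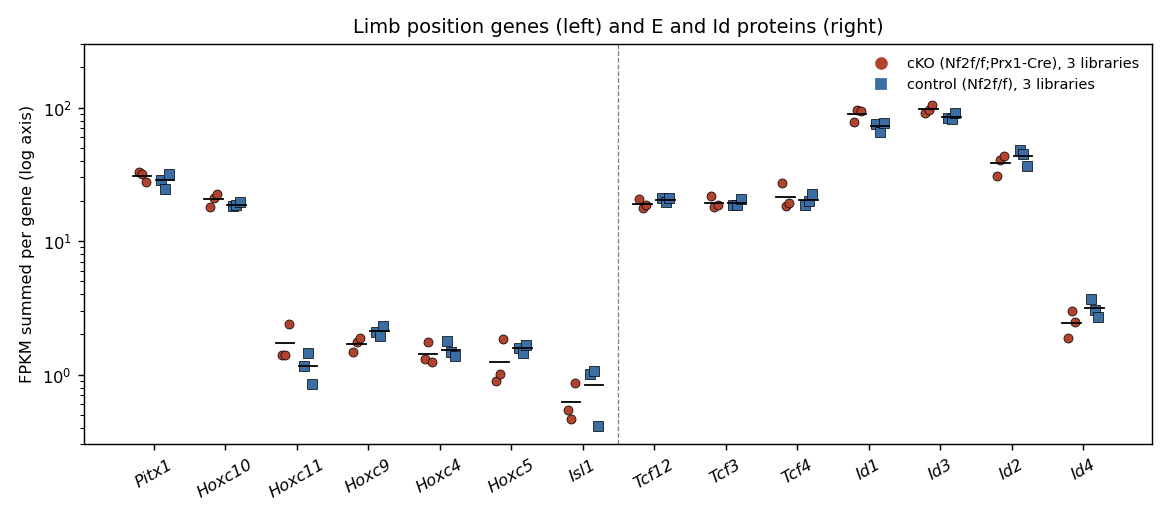
FPKM summed per gene on a log axis for 7 limb position genes and 7 E and Id protein genes, with circles for cKO libraries, squares for control libraries and bars for group means. None of the 14 passed limma, and Pitx1 and Hoxc10 stand above the other limb position genes in both groups.

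The Tbx4 signal was split over 3 transcripts that differ in their first exons and share the last 6. ENSMUST00000108047 (9 exons) and ENSMUST00000000096 (8 exons) share 201 coding bases in their first coding exon, which ENSMUST00000108045 (7 exons) lacks because it starts downstream at a noncoding exon of its own. ENSMUST00000108045 was at 3.299, 3.652 and 0.082 FPKM in cKO 1 to 3 and at 0.395, 5.539 and 6.087 FPKM in control 1 to 3. Its share of Tbx4 was 32.6, 36.7 and 1.02% in cKO 1 to 3 and 4.52, 57.2 and 56.3% in control 1 to 3. The low libraries were cKO 3 and control 1, so the split did not follow the groups, and it did not follow the Xist level either, which was low in cKO 3 and control 2. The log2 change of this transcript was -0.65 (SE 1.1, limma adjusted p = 0.828 over 27761 tested transcripts), and none of the 3 passed. The 3 transcripts share most of their length, and how reads were divided between them is not stated in the sources used here. The window before the downstream start, at chr11:85896515-85896764 on the plus strand of GRCm38.p6, is shown because it is the start that RefSeq gives and that of the transcript near 0 in cKO 3.
Tbx4: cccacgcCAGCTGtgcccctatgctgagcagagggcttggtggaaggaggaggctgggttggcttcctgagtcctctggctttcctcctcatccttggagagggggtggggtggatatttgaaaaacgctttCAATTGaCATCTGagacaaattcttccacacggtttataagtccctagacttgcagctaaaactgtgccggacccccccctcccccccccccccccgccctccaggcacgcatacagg
It held 3 E-boxes, in capitals, and no match to the other 4 motifs.

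**Figure D4:**
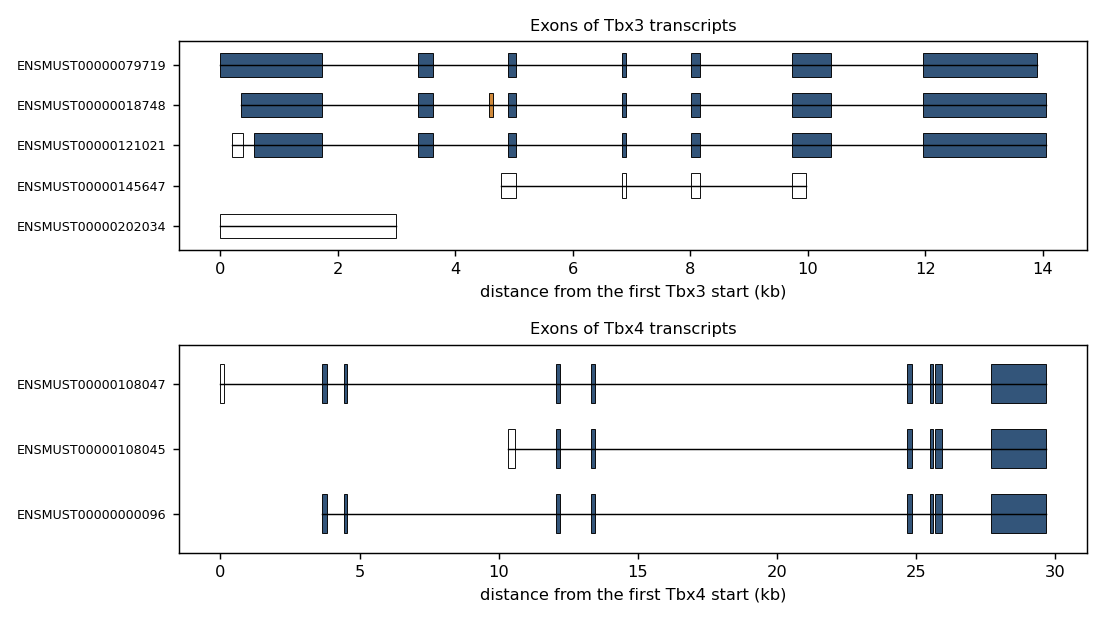
Exons of the listed Tbx3 and Tbx4 transcripts against distance in kb from the first start of each gene, with filled boxes for exons that hold coding bases, open boxes for exons that hold none and an orange box for the 60-base exon of Tbx3. The 3 Tbx4 transcripts differ at their first exons, and the 60-base exon is in ENSMUST00000018748 alone.

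Tbx2 and Tbx3, the repressor pair, were low. Tbx2 (ENSMUSG00000000093, chromosome 11, 85832551 to 85841948) lies 44.5 kb before Tbx4 and was at 0.113, 0.217 and 0.139 FPKM in cKO 1 to 3 and at 0.195, 0.063 and 0.477 FPKM in control 1 to 3. It was not tested, since its mean of 0.2 FPKM lay under the filter, and the control libraries spanned the cKO values. Tbx3 (ENSMUSG00000018604, chromosome 5, 119670669 to 119684724) lies 147.9 kb before Tbx5 and was at 0.896, 1.371 and 0.884 FPKM in cKO 1 to 3 and at 1.217, 1.242 and 1.484 FPKM in control 1 to 3. cKO 1 and cKO 3 were the lowest, and cKO 2 lay within the control range. The log2 change was -0.24 (SE 0.17, 95% interval -0.62 to 0.14, limma adjusted p = 0.385). The log2 ratio of Tbx3 to its neighbour Tbx5 was -0.69, -0.77 and -0.75 in cKO 1 to 3 and 0.13, 0.96 and -0.07 in control 1 to 3. It was lower in every cKO library, by 1.07 on average (exact 2-sided permutation p = 0.10, the smallest that the design allows, and 0.20 adjusted over 4 ratios). Both genes are low, with an implied 78 to 125 fragments per library for Tbx3 and 44 to 160 for Tbx5. The highest ratio was that of control 2, the library with the fewest implied Tbx5 fragments.

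Tbx3 is known to be made with or without a short exon inside the region that codes for its T-box, which gives proteins that differ by an insertion in the DNA-binding domain. In the table this exon, of 60 bases, is in ENSMUST00000018748 alone, at chr5:119675243-119675302 on the plus strand of GRCm38. It is printed in capitals from the GENCODE M21 transcript, with 30 bases of the exon on each side in lower case, because it separates the main Tbx3 transcripts.
Tbx3: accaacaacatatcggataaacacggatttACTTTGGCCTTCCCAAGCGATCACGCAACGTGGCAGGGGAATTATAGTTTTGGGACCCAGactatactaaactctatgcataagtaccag
The transcript with the exon was at 0.090, 0.777 and 0 FPKM in cKO 1 to 3 and at 0.345, 0.847 and 0.711 FPKM in control 1 to 3. Its share of Tbx3 was 10, 56.6 and 0% in cKO 1 to 3 and 28.4, 68.2 and 47.9% in control 1 to 3. cKO 1 and cKO 3 had the lowest shares, while cKO 2 lay among the control libraries. The 7-exon transcript without it, ENSMUST00000079719, was at 0.750, 0.564 and 0.872 FPKM in cKO 1 to 3 and at 0.351, 0.297 and 0.667 FPKM in control 1 to 3. Its log2 change was 0.40 (SE 0.23, limma adjusted p = 0.487). With an implied 78 to 125 fragments for all of Tbx3 in a cKO library and 97 to 124 in a control library, few reads fall on a 60-base exon.

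A further Tbx3 transcript, ENSMUST00000121021, was listed at 0.469 FPKM in control 1 and at 0 in the other 5 libraries. The authors' deposited table gives it q = 1.72e-06 and marks it as significant, the only one of the 21 transcripts so marked, beside 2.19% of all listed transcripts. That call rests on the value in control 1. From exon 3 on it has the exons of the 7-exon transcript, apart from where the last one ends, and it differs by a split first exon. The retained-intron transcript ENSMUST00000145647 was at 0.011, 0.011 and 0.011 FPKM in cKO 1 to 3 and at 0.044, 0.051 and 0.060 FPKM in control 1 to 3. Its groups did not overlap, but it lay below the level tested, and the authors' deposited table gives it q = 0.868. At the implied depths these values are less than a whole fragment in every library, so the lack of overlap is no counted difference. ENSMUST00000202034, a retained-intron transcript with 1 exon, stayed at or under 0.046 FPKM.

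**Figure D5:**
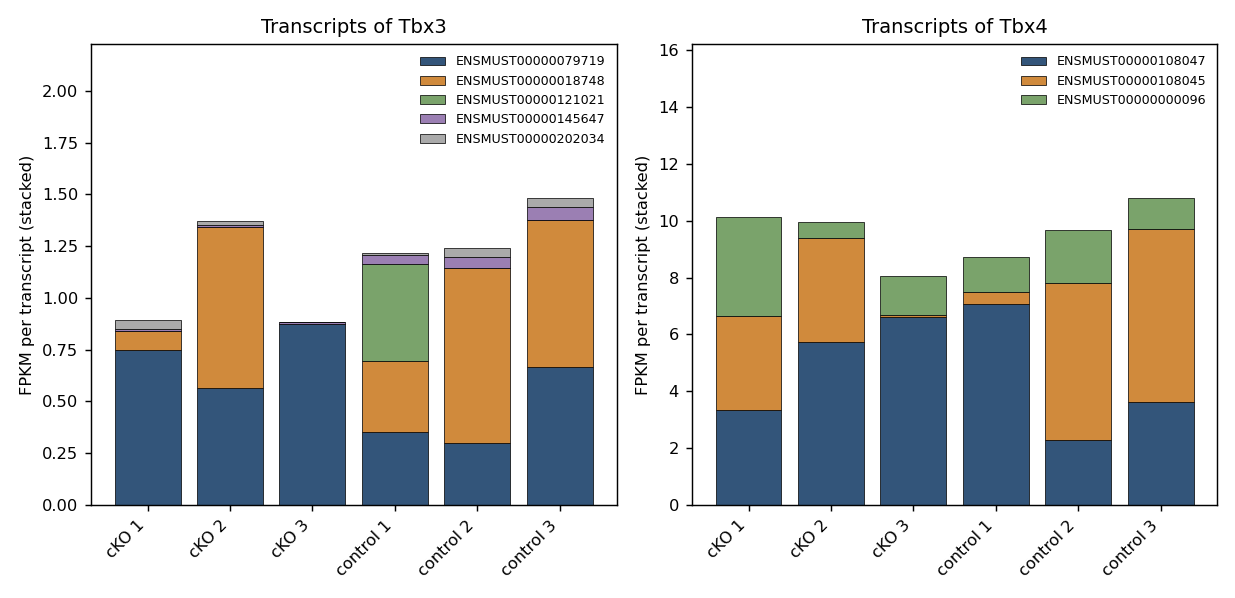
Stacked FPKM of each listed transcript of Tbx3 (left) and Tbx4 (right) in cKO 1 to 3 and control 1 to 3. For Tbx4 the transcript that starts downstream (ENSMUST00000108045) is near 0 in cKO 3 and small in control 1, and for Tbx3 the transcript ENSMUST00000121021 is present in control 1 alone.

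Over all 9 regulators, 10 of the 21 transcripts had a mean of at least 0.5 FPKM and were tested. By limma 0 of the 10 passed, beside 0.609% of the 27761 transcripts tested, and 3 had an unadjusted p under 0.05 (those of Hand2, Tbx15 and Tbx18). In the authors' deposited table, q was under 0.05 for 3 of the 21 (those of Hand2 and Tbx18 and ENSMUST00000121021 of Tbx3), beside 3.81% of all listed transcripts. The groups did not overlap for 4 of the 10 tested transcripts, beside 22.6% of all those tested. The genes Hand2, Twist1 and Tbx2 have 1 listed transcript each, so their gene and transcript levels are the same values.

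Twist1 (ENSMUSG00000035799, chromosome 12, 33957671 to 33959829), which keeps limb mesenchyme undifferentiated, was at 26.050, 20.890 and 30.610 FPKM in cKO 1 to 3 and at 20.040, 18.480 and 22.700 FPKM in control 1 to 3. cKO 2 lay within the control range, and cKO 1 and cKO 3 lay above it. The log2 change was 0.32 (SE 0.14, 95% interval 0.01 to 0.63, limma adjusted p = 0.159), and 1 of 16 alternatives passed, the one without cKO 2 (0.0368). Twist2 (ENSMUSG00000007805, chromosome 1, 91801461 to 91848028), its relative of dermis and limb mesenchyme, was at 7.324, 11.000 and 9.822 FPKM in cKO 1 to 3 and at 9.184, 10.640 and 10.960 FPKM in control 1 to 3. The groups overlapped, with cKO 1 the lowest. The log2 change was -0.14 (SE 0.14, 95% interval -0.46 to 0.19, limma adjusted p = 0.570). The log2 ratio of Twist2 to Twist1 was -1.83, -0.93 and -1.64 in cKO 1 to 3 and -1.13, -0.80 and -1.05 in control 1 to 3. The difference was -0.47 (exact 2-sided permutation p = 0.30, also 0.30 adjusted over 4 ratios), by a test that cannot give a p under 0.10 here.

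Nearly all Twist2 signal came from the spliced 2-exon transcript ENSMUST00000007949 (98.7% in cKO and 99.4% in control). The unspliced ENSMUST00000186075, which runs on from the first exon, was at 0.111, 0.141 and 0.119 FPKM in cKO 1 to 3 and at 0.051, 0.057 and 0.076 FPKM in control 1 to 3. Its share of Twist2 was 1.34 ± 0.159% in cKO and 0.595 ± 0.0899% in control (SD, n = 3 each). The groups did not overlap, but the transcript lay below the level tested, and the authors' deposited table gives it q = 0.425. The noncoding gene Gm29100 overlaps it on the opposite strand and was at 0.347, 0.465 and 0.214 FPKM in cKO 1 to 3 and at 0.389, 0.076 and 0.418 FPKM in control 1 to 3, so its groups overlapped.

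The genes for E proteins, partners of the bHLH factors, and for the Id proteins that hold E proteins did not pass the test. Of the 7 genes for E and Id proteins all were tested and none passed limma, with a median log2 change of 0.004. Tcf12, the E protein HEB, was at 20.84, 17.72 and 18.66 FPKM in cKO 1 to 3 and at 21.07, 19.50 and 20.96 FPKM in control 1 to 3. Id1, an inhibitor of E proteins, was at 78.6, 95.5 and 94.2 FPKM in cKO 1 to 3 and at 75.4, 66.1 and 76.9 FPKM in control 1 to 3. The Id1 groups did not overlap, with a log2 change of 0.29 (SE 0.094, limma adjusted p = 0.0801). Id1 and Tcf12, like Pitx1, Hoxc10, Fgf10, Gli3, Mga, Scx, Hand1 and the single marker genes, are named as examples outside the rule for named genes, chosen after their values were seen.

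Genes within 10 kb of a regulator were mostly low. The protein-coding Wars2, before Tbx15, was at 5.59 to 5.99 FPKM in cKO and 5.05 to 5.38 FPKM in control, without overlap, and Bcas3, before Tbx2, was at 3.78 to 4.78 FPKM in cKO and 3.17 to 4.22 FPKM in control, with overlap. Neither passed (limma adjusted p = 0.271 for Wars2 and 0.290 for Bcas3). The noncoding neighbours not named above (2610027K06Rik, Tbx3os2, Gm43050, Gm37374, Gm34030, 5033428I22Rik and Gm29101) stayed at or under 0.406 FPKM in every library, and Tbx3os1, antisense at the start of Tbx3, was not listed.

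Most of the other T-box and mesodermal bHLH genes looked at were low or not listed. Of 11 other T-box genes, 7 were listed and only Mga, which pairs with Max, was high enough to test, at 10.3, 10.1 and 8.12 FPKM in cKO 1 to 3 and at 11.3, 10.7 and 10.4 FPKM in control 1 to 3. Its log2 change of -0.18 did not pass (SE 0.10, limma adjusted p = 0.265). Of 9 other mesodermal bHLH genes 4 were listed and only Scx, a tendon factor, was tested, at 8.59, 9.10 and 10.7 FPKM in cKO 1 to 3 and at 8.87, 9.34 and 9.90 FPKM in control 1 to 3. Its log2 change was 0.01 (SE 0.095, limma adjusted p = 0.969). Hand1, the closest relative of Hand2, was at 0.109, 0.081 and 0.038 FPKM in cKO 1 to 3 and listed at 0 in control 1 to 3. It lay under the filter and was not tested, and values this low stand for few fragments.

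Genes tied to these factors in limb development are read beside the 12.2% of all tested genes that passed. Of 11 tested limb bud signals and effectors, 1 rose (Bmp4), 2 fell (Grem1 and Ihh) and 8 did not pass, among them Fgf10, the growth factor downstream of Tbx5 and Tbx4, and Gli3, the counterpart of Hand2. The median log2 change of the list was -0.03. Fgf10 was at 2.13, 2.15 and 1.04 FPKM in cKO 1 to 3 and at 2.15, 2.51 and 2.08 FPKM in control 1 to 3 (log2 change -0.31, SE 0.21, limma adjusted p = 0.374). Gli3 was at 10.2, 10.1 and 8.74 FPKM in cKO 1 to 3 and at 10.6, 9.43 and 9.76 FPKM in control 1 to 3 (limma adjusted p = 0.838). Shh, the posterior signal downstream of Hand2, was not listed. Bmp4, a bone morphogenetic protein, was at 48.9 ± 2.32 FPKM in cKO and 23.4 ± 2.00 FPKM in control (SD, n = 3 each), a log2 change of 1.05 (limma adjusted p = 0.000257). Grem1, its antagonist, was at 43.3 ± 2.27 FPKM in cKO and 77.9 ± 12.6 FPKM in control, a log2 change of -0.83 (limma adjusted p = 0.00441). Ihh, the growth plate Hedgehog ligand, was at 0.207 ± 0.135 FPKM in cKO and 1.32 ± 0.385 FPKM in control, a log2 change of -1.36 (limma adjusted p = 0.00917).

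Of 6 tested limb mesenchyme homeobox genes 2 rose and 4 did not pass, with a median log2 change of 0.10. Msx1, a homeobox gene of undifferentiated mesenchyme, was at 2.83, 1.97 and 2.91 FPKM in cKO 1 to 3 and at 1.49, 1.33 and 0.919 FPKM in control 1 to 3. The groups did not overlap and the log2 change was 0.81 (SE 0.18, limma adjusted p = 0.0263), lost without cKO 1 or 3 or control 2 or 3 (0.0649 to 0.0774), with no filter (0.108) or with the highest transcript of each gene (0.0702). Prrx2, a relative of Prrx1, rose by 0.67 (SE 0.081, limma adjusted p = 0.00266). Of 7 genes tied to mesenchymal transition, Vim, the intermediate filament of mesenchyme, rose, Snai2, a repressor that Twist1 is known to induce in other cells, fell, and 5 did not pass, with a median log2 change of 0.04. Snai2 was at 13.1, 14.7 and 16.7 FPKM in cKO 1 to 3 and at 22.0, 22.8 and 20.9 FPKM in control 1 to 3, without overlap. The log2 change of Snai2 was -0.55 (SE 0.092, limma adjusted p = 0.00960), and that of Vim was 0.64 (SE 0.10, limma adjusted p = 0.00768). Without control 2 neither passed (0.0502 for Snai2 and 0.0542 for Vim), and Vim was also lost with no filter (0.1) and with the highest transcript of each gene (0.0601).

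Of the 4 genes that Tbx2 or Tbx3 is known to repress in other cells, 3 were tested, 1 rose and 2 did not pass, with a median log2 change of 0.20. Cdkn1a, the cell cycle inhibitor p21, was at 148.6, 216.6 and 171.6 FPKM in cKO 1 to 3 and at 114.2, 112.1 and 120.5 FPKM in control 1 to 3. Every cKO library was above every control library, with a log2 change of 0.61 (SE 0.12, limma adjusted p = 0.0189), lost without control 1 or control 2 (0.0673 and 0.0799), with no filter (0.0867) and with the highest transcript of each gene (0.129). Cdkn2a, another cell cycle inhibitor, was at 6.45, 2.62 and 5.06 FPKM in cKO 1 to 3 and at 3.34, 3.30 and 4.99 FPKM in control 1 to 3 (log2 change 0.20, limma adjusted p = 0.687), and Ndrg1, a stress-response gene, was at 19.75, 18.87 and 18.77 FPKM in cKO 1 to 3 and at 20.65, 19.60 and 20.33 FPKM in control 1 to 3 (log2 change -0.08, limma adjusted p = 0.452). Cdh1, the epithelial cadherin, lay under the filter at 0.428, 0.443 and 0.319 FPKM in cKO 1 to 3 and at 0.143, 0.194 and 0.303 FPKM in control 1 to 3, without overlap.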

How the data were processed

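RNA was extracted with Trizol, fragmented and reverse transcribed with dUTP, per the labels' protocols. The deposited table gives FPKM that the authors computed per transcript and library, with the authors' fold ratio, its log2 value, and a p-value and q-value from a test that is not named, per the file headers. The submitters' processing notes name mm10. The sources used here name neither the aligner nor the program behind FPKM. All 21 transcripts had the same span in GENCODE M21.

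Values were summed per gene symbol and kept at a mean of 0.5 FPKM or more. The test was limma 3.58.1 in R 4.3.3, 2-sided, on log2(FPKM + 0.5), with the variance trend on, no covariate and Benjamini-Hochberg adjustment over all tested features. On that scale changes of low genes come out too small. Alternatives changed the pseudocount, filter, scaling, transcripts summed, covariates and libraries. Fits were tested on simulated data. Ratios between genes were tested by exact permutation. Members and gene lists were chosen with earlier results of these data known. Named genes are all members, up to 4 passing genes per list, lists of 4 or fewer, genes within 10 kb of a member, and the 2 profiles nearest to each member that passed. Python 3.11.15, pandas 2.3.3, NumPy 2.4.6 and Matplotlib 3.10.9 were used for tables and plots.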

Additional observations from a re-analysis of the deposited data

How the results depend on the processing

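Over 16 alternatives for genes and 14 for transcripts, Hand2 stayed higher and Tbx18 lower in each that tested them, but their calls did not hold throughout. The number of regulators passing was 2 in the reported fit, 1 at a mean of 2 FPKM or more (where Hand2 is not tested), with median-of-ratios scaling, with the Xist covariate and with protein-coding transcripts (Tbx18 lost in these last 2, Hand2 with median-of-ratios scaling), and 0 with no filter on low values, with the highest transcript of each gene and with the replicate block. Leaving out each library in turn gave 0 to 1. For all genes, 1713 passed in the reported fit, 662 with no filter, 540 with the highest transcript of each gene, 1097 with the replicate block, and 537 to 1324 when each library was left out, with 678 without control 1 and 537 without control 2. The regulators' transcripts stayed at 0 passing in each alternative.

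Directions that reversed belonged to changes that had not passed. With the highest transcript of each gene, Tbx3 had a log2 change of 0.40 and Tbx4 of 0.33. When each library was left out, Tbx4 lay between -0.125 and 0.0464, Twist2 between -0.256 and 0.0217, Cdkn2a between -0.047 and 0.530, ENSMUST00000108047 between -0.0102 and 0.715, ENSMUST00000108045 between -1.59 and 0.272, ENSMUST00000000096 between -0.416 and 0.542, and ENSMUST00000007949 between -0.266 and 0.0126. The cause was not tested.

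Replicate numbers are shared between the groups, and the labels do not say whether they mark pairs. The deviations of same-numbered libraries had correlations of -0.02, -0.06 and -0.05 over 14080 genes. These values show no pairing but cannot exclude that such libraries were prepared together. With no filter, adjusted p was 0.140 for Hand2 and 0.133 for Tbx18. With the replicate block Hand2 had an adjusted p of 0.0916, Tbx18 of 0.0791 and Msx1 of 0.0565. Depth limits the low genes most: Tbx2 stands for an implied 4 to 31 fragments in control libraries.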
